A study of Mus musculus with 31 samples.

Results

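Antigen presentation genes were examined in kidneys of mice with polycystic kidney disease: 10 genes, namely H2-Aa, H2-Ab1, H2-Eb1, H2-DMa, H2-DMb1, Cd74 and Ciita of the MHC class II pathway, and B2m, Tap1 and Psmb8 of the MHC class I pathway. They were taken by symbol from the 23509 gene rows of the count tables, and all 10 passed the filter on low counts that left 15185 genes for testing. RNA-seq of polyA RNA from whole kidney compared 3 groups of 30-week-old mice. The Pcy/CD1 strain carries the pcy mutation, which causes slowly growing kidney cysts, on the outbred CD1 background. Of these mice, 12 received PBS and 14 received RGLS4326, a short anti-miR-17 oligonucleotide, by subcutaneous injection at 25 mg kg-1, starting at 5 weeks of age and continuing for 25 weeks. The RGLS4326 labels give a monthly schedule. The PBS labels and the study's description of the experiment say weekly, whereas the deposited treatment protocol gives monthly for both arms, so the number of injections may differ between the arms. Wild-type CD1 mice, 5 untreated males of the same age, served as the comparison without disease, and the study describes its Pcy/CD1 mice as male too. The methods name 1 supplier for Pcy/CD1 mice and others for CD1 mice, so cyst disease, stock and injection cannot be told apart in any comparison with wild type.

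MHC class II molecules display peptides from endocytosed protein to CD4 T cells. They are pairs of an alpha and a beta chain (H2-Aa with H2-Ab1, and H2-Eb1 with the E alpha chain) that assemble on the invariant chain Cd74, and the H2-DM heterodimer then exchanges the invariant chain fragment for peptide. Ciita is the transactivator on which transcription of this whole set depends. MHC class I molecules display peptides from the cytosol to CD8 T cells: Psmb8 is an interferon-inducible subunit of the immunoproteasome, Tap1 is a subunit of the transporter that carries peptides into the endoplasmic reticulum, and B2m is the light chain of the class I molecule on nearly every cell. Dendritic cells, macrophages and B cells carry class II constitutively, and kidney tubule cells can be induced to carry it by interferon gamma.

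Depth, as the sum of gene counts of a mouse, ran from 14892524 to 27459962. The lowest count of any of the 10 genes in any mouse was 98 (Ciita, wild-type mouse 2). Levels are given as CPM, the count of a gene scaled by the effective size of its library. A gene was called when its adjusted p in edgeR's quasi-likelihood test was under 0.05 and its absolute log2 fold change over 0.5. The tubule markers Slc34a1 and Lrp2 reached means of 7596 and 3609 CPM in wild type, and no kidney marker was at 0 in any mouse. The library labelled RGLS4326 mouse 9 stood apart and went against its label: its log2 expression correlated with that of the wild-type mice at 0.988 to 0.992, against 0.929 to 0.970 with the PBS mice and 0.944 to 0.979 with the other treated mice. Gm8615 was at 84.6 to 98.6 CPM in wild type and at 89.7 CPM in this library, and at no more than 0.494 CPM in every other mouse labelled Pcy. Lcn2, a marker of tubular injury, was at 2.76 CPM in it, against at least 126 CPM in the other treated mice. Whether the library comes from a Pcy mouse could not be settled here. It is kept under its label, called mouse 9 below, and the differences of the 10 genes between treated and PBS mice are therefore given with and without this library. Wild-type mice 3 and 4 were more alike than any other pair, with a chi-square per gene of 2.69 between their counts against 16.05 to 22.56 for the other wild-type pairs. This is above sampling noise, but 2 libraries of 1 animal could be too, so the value cannot show whether they are 2 mice. They were counted as 2, as labelled. With either left out all 10 genes were still called in both comparisons with wild type.

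In the GRCm38 annotation of GENCODE vM21, 7 of the 10 genes lie within 197.1 kb of the MHC region of chromosome 17. From one end to the other they are H2-DMa (chr17:34119541-34139101, plus strand), H2-DMb1 (chr17:34153072-34160230, plus), Tap1 (chr17:34187553-34197225, plus), Psmb8 (chr17:34197721-34201454, plus), H2-Ab1 (chr17:34257689-34269419, plus), H2-Aa (chr17:34282744-34287823, minus) and H2-Eb1 (chr17:34305867-34316674, plus). B2m is at chr2:122147686-122153083 and Ciita at chr16:10480059-10528418, both on the plus strand. Exons on the opposite strand overlap those of H2-DMa (Brd2), Tap1 (Psmb9), Psmb8 (Gm20496) and Ciita (Dexi). The library kit marks strand, but the strand setting of the counting is not given in the sources used here, so reads of such pairs may not be separated. MHC genes are polymorphic and CD1 mice are outbred, while reads were counted against the 1 reference haplotype.

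Class II promoters are known for an X box and a Y box in fixed spacing, which the factors that recruit Ciita bind. RefSeq promoter windows (GRCm38.p6, 300 bases each, from 250 bases before the start) matched 7 of the 10 genes in 8 windows. H2-Ab1, Cd74 and Ciita had none. Windows were searched on both strands for an X box core (CTNGNAAC, in 13.2% of 32851 mouse windows) and a Y box (GATTGG, in 16.1%). A core followed by a Y box on the same strand after a gap of 10 to 40 bases occurred in 24 windows (0.0731%), and 3 of them belonged to H2-Aa, H2-Eb1 and H2-DMb1, with gaps of 27, 26 and 27 bases. The window of H2-Ob, with a gap of 24 bases, was another. These stretches are shown because the 3 genes with the shared arrangement are among those compared below, with the X box core and the Y box in capitals.
H2-Aa, chr17:34287857-34287917, minus strand: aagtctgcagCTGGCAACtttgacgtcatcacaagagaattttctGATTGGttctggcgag
H2-Eb1, chr17:34305763-34305822, plus strand: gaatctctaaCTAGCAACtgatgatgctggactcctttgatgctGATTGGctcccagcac
H2-DMb1, chr17:34153084-34153144, plus strand: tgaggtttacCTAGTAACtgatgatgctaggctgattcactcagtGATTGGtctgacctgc

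The same windows were searched for the interferon-stimulated response element (ISRE, here GAAA followed after any 2 bases by GAAA, in 3.44% of all windows) and the gamma-activated sequence (GAS, TTCNNNGAA, in 8.3%). The ISRE was found in 1 of the 8 windows, that of B2m, which also holds a Y box. The GAS was found in the Psmb8 window alone, 97 bases before the start, where it overlaps an X box core on the other strand. No X box core was found in the windows of B2m, Tap1 and H2-DMa. The B2m stretch is shown for the spacing of its pair, with the ISRE first and the Y box second in capitals.
B2m, chr2:122147538-122147648, plus strand: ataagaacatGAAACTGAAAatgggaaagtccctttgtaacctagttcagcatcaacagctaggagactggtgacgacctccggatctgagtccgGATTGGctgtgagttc

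The comparison of PBS-treated Pcy mice with wild type asked how the genes differ in cystic kidney. All 10 were called higher in the PBS group, against 24.6% of all genes tested, and for each of them the lowest PBS mouse lay above the highest wild-type mouse, a separation found for 20.3% of all genes. The median log2 fold change was 1.91 over the 10 genes and 0.01 over all genes tested. The class II genes had a median of 2.29 and the class I genes one of 1.60. In whole kidney, more cells of a type and more RNA per cell cannot be told apart.

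The invariant chain Cd74 was the most abundant of the class II genes. Its level was 196, 164, 222, 211 and 207 CPM in the wild-type mice. The PBS mice ranged from 781 to 1928 CPM with a median of 1249.9. No PBS mouse was under 781 CPM, and the fitted difference was 5.98-fold (log2 2.58, SE 0.30, edgeR adjusted p 2.53e-08). Cd74 lies at chr18:60803848-60812652 on the plus strand.

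H2-Ab1, the beta chain of the A molecule, was at 113, 91.1, 106, 103 and 105 CPM in wild type. It ranged from 385 to 861 CPM with a median of 583 in the PBS mice, 5.54-fold higher (log2 2.47, SE 0.28, edgeR adjusted p 2.23e-08). The 5 wild-type values lay close together, with a coefficient of variation of 7.64%, against 23.8% in the PBS group. Its partner chain H2-Aa was at 101, 79.1, 108, 106 and 115 CPM in wild type and at 396 to 666 CPM, with a median of 497, in the PBS mice. The difference was 4.90-fold (log2 2.29, SE 0.26, edgeR adjusted p 1.42e-08). The groups did not overlap for either chain.

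H2-Eb1, the beta chain of the E molecule, had the largest fitted difference of the 10 and the widest spread among wild-type mice. The wild-type values were 82.1, 34.2, 82.1, 80.3 and 48.5 CPM, so that mice 2 and 5 lay apart from the other 3. The PBS mice ranged from 318 to 584 CPM with a median of 421, 6.28-fold higher (log2 2.65, SE 0.36, edgeR adjusted p 1.80e-07). Its place as the largest rests on wild-type mouse 2: without that mouse the log2 difference was 2.49 for H2-Eb1 and 2.52 for Cd74.

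The 2 chains of the peptide exchanger H2-DM were both higher. H2-DMa was at 12.03, 11.6, 11.1, 9.75 and 11.6 CPM in wild type and at 29.6 to 59.9 CPM, median 42.1, in the PBS mice, a 3.67-fold difference (log2 1.88, SE 0.24, edgeR adjusted p 7.07e-08). H2-DMb1 was at 11.9, 8.91, 9.88, 9.99 and 6.92 CPM and then at 14.2 to 33.2 CPM, median 21.9, a 2.23-fold difference (log2 1.15, SE 0.22, edgeR adjusted p 2.19e-05). For H2-DMb1 the groups came closest, at 11.9 CPM in the highest wild-type mouse and 14.2 CPM in the lowest PBS mouse. H2-DMb1 has a close copy, H2-DMb2, and only uniquely mapped reads were counted, so the split of reads between the copies is uncertain.

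Ciita, the transactivator, was the least abundant member, at 8.08, 5.82, 7.10, 6.12 and 6.74 CPM in wild type. The PBS mice ranged from 13.1 to 26.5 CPM with a median of 18.8, 2.78-fold higher (log2 1.47, SE 0.21, edgeR adjusted p 2.895e-07). Its fold change was smaller than those of Cd74, H2-Aa, H2-Ab1 and H2-Eb1, a difference between genes that was not tested.

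Among the class I genes, the proteasome subunit Psmb8 differed most. It was at 17.99, 12.1, 13.2, 15.4 and 12.4 CPM in wild type and at 34.7 to 83.1 CPM, median 51.3, in the PBS mice, 3.85-fold higher (log2 1.94, SE 0.25, edgeR adjusted p 1.10e-07). Tap1 was at 16.4, 11.9, 13.3, 10.54 and 14.3 CPM and then at 32.3 to 56.6 CPM, median 37.6, a 3.02-fold difference (log2 1.60, SE 0.23, edgeR adjusted p 4.30e-07). The groups did not overlap for either gene.

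B2m, already abundant without disease, had the smallest difference. Its wild-type values were 315, 272, 316, 314 and 289.7 CPM, and the PBS mice ranged from 398 to 557 CPM with a median of 478. The difference was 1.58-fold (log2 0.66, SE 0.12, edgeR adjusted p 7.75e-06), and its 95% interval, 0.43 to 0.90, reached under the size threshold of 0.5.

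**Figure D1:**
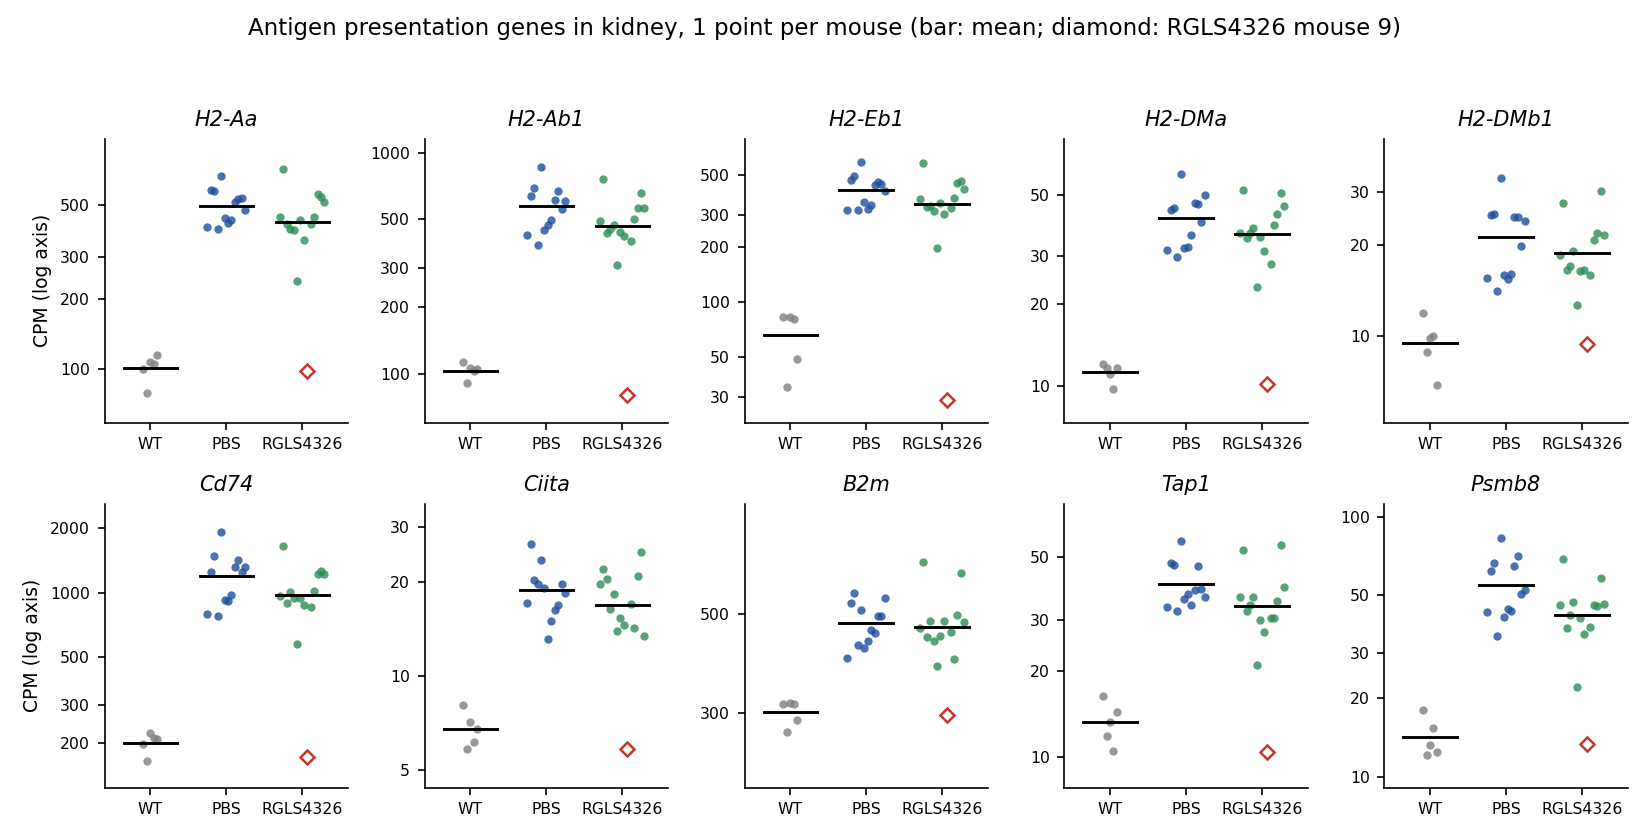
Level of each of the 10 genes in CPM on a log axis, with 1 point per mouse for WT (n = 5), Pcy PBS (n = 12) and Pcy RGLS4326 (n = 14); bars are group means and the diamond is RGLS4326 mouse 9. Every PBS mouse lies above every WT mouse for all 10 genes, and the diamond lies within or just below the WT points.

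The difference from wild type was present within each of the 3 series of index numbers in the names of the deposited libraries, which each hold mice of all groups. All 10 genes were called higher in series 1 and in series 2, where 36.7% and 34.2% of all genes were called in either direction. The median log2 fold change was 1.72, 1.93 and 2.10 in series 1, 2 and 3. Series 3 holds 1 wild-type mouse, which was assumed to vary like the others, so only the size of its difference is given.

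Because genes differ in length, levels between genes were compared as CPM per kb of merged exons. Merged exons take in every annotated transcript, 8 for H2-DMa and 1 for B2m, so the length may exceed that of the RNA present. The order of genes depends on this choice. In wild type, B2m led at 350.4 ± 23.03 CPM per kb (SD, n = 5), followed by Cd74 at 119 ± 13.2. H2-Ab1 at 40.3 ± 3.07, H2-Eb1 at 33.7 ± 11.6 and H2-Aa at 26.7 ± 3.57 came next. The range of H2-Eb1 overlapped those of both H2-Ab1 and H2-Aa. H2-DMb1, Psmb8, H2-DMa and Tap1 lay between 5.67 and 2.43, and Ciita was last at 0.7102 ± 0.0931. In the PBS group, Cd74 was first at 713 ± 200.3 CPM per kb (SD, n = 12) and B2m second at 555 ± 61.0, with overlapping ranges. Psmb8, at 16.2 ± 4.30, stood above H2-DMb1, at 12.6 ± 3.51, whereas the reverse held in wild type. H2-Ab1 and H2-Eb1, at 223 ± 53.0 and 212 ± 42.8, had overlapping ranges. Differences between genes within the same mouse were not tested here.

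Ratios of 2 genes in the same mouse do not depend on library scaling. 6 such ratios are given as a description, since the pairs were chosen after the values were seen. Cd74 relative to B2m had a mean log2 ratio of 1.29 in the PBS group and −0.60 in wild type, a difference of 1.88. Psmb8 relative to the constitutive subunit Psmb5, whose place it takes in the immunoproteasome, had means of −0.41 and −2.51, a difference of 2.10. The difference was 0.72 for H2-DMa relative to H2-DMb1 and 0.60 for Tap1 relative to its transporter partner Tap2. In each of these 4 the groups did not overlap. The H2-DMa ratio leaves out H2-DMb2, the close copy of H2-DMb1. The mean of H2-DMb2 was 3.74 CPM in wild type and 23.3 CPM in the PBS group. A ratio of H2-DMa to both copies together was not computed, so a shift between the 2 chains of H2-DM cannot be read from it. For H2-Aa relative to H2-Ab1 the difference was −0.15 and for Cd74 relative to H2-Ab1 it was 0.10, with overlapping groups.

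**Figure D2:**
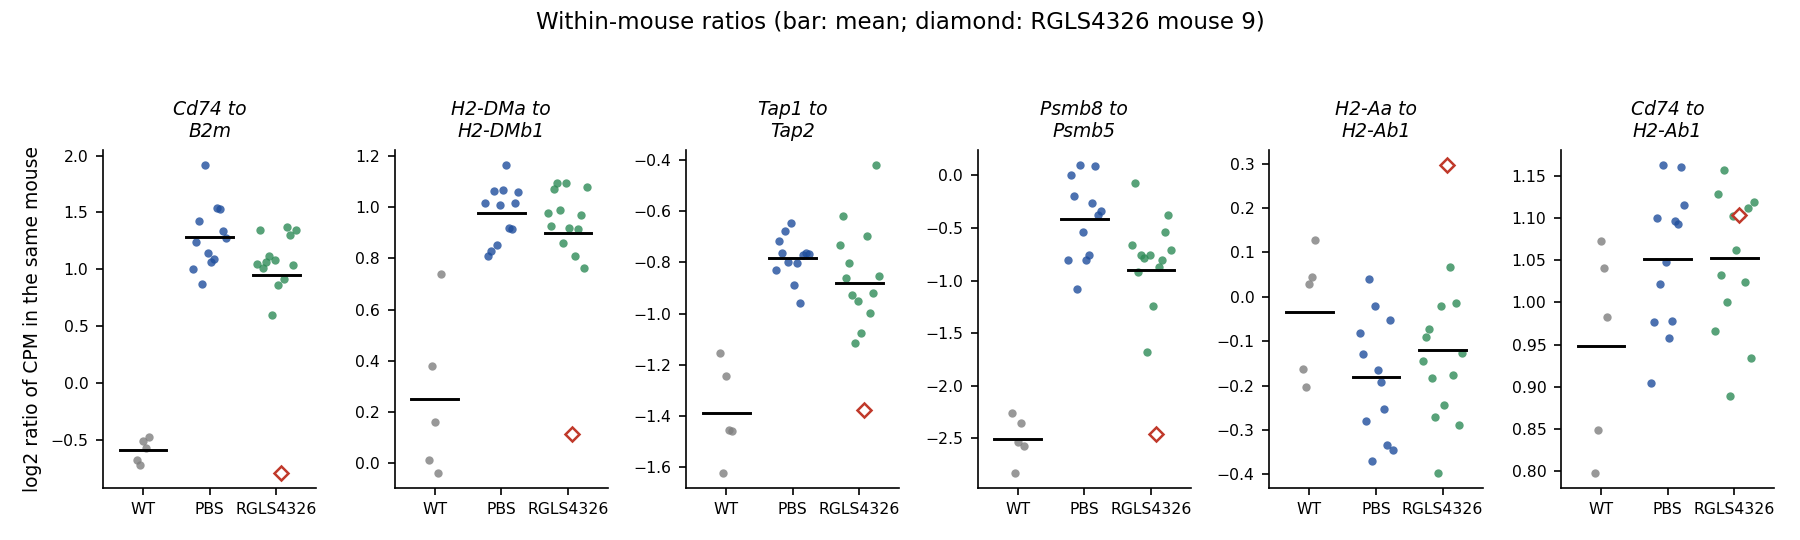
Log2 ratio of the CPM of 2 genes in the same mouse for 6 gene pairs, with 1 point per mouse in each group; bars are group means, the diamond is RGLS4326 mouse 9, and each panel has its own linear axis. For the first 4 pairs no WT point lies among the PBS points, and for the last 2 pairs the groups overlap.

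Other genes of the class II pathway did not all move as the 7 members did. Of 11 listed genes, 4 were called higher in the PBS group and 1 lower, with a median log2 fold change of 0.38. Of all genes, 24.6% were called higher and 17.8% lower, so these counts lay near the background. Ctss, the protease that trims the invariant chain, was at 8.02 to 15.3 CPM in wild type and 59.2 to 110.5 CPM in the PBS mice (log2 2.80, edgeR adjusted p 3.55e-08). H2-DMb2 was 2.64 higher (edgeR adjusted p 2.52e-07), and H2-Oa, a chain of the H2-O inhibitor of H2-DM, 1.70 higher (edgeR adjusted p 8.77e-06). The fourth was H2-Ob, the other H2-O chain (0.87, edgeR adjusted p 0.00237). Rfx5, Rfxap and Rfxank, subunits of the factor that binds the X box, had log2 differences of 0.33, 0.38 and 0.13, under the size threshold. March1, a ubiquitin ligase that removes class II from the cell surface, was called lower (−0.57, edgeR adjusted p 0.00443). Its PBS range, 4.30 to 7.13 CPM, lay within the wild-type range of 3.85 to 11.2 CPM.

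In the class I pathway, 12 of 16 listed genes were called higher and 1 lower, against 24.6% and 17.8% of all genes, with a median log2 fold change of 0.9995. The heavy chains H2-T23, H2-K1 and H2-D1 were 1.41, 1.37 and 1.349 higher. H2-T23 ranged from 36.3 to 48.4 CPM in wild type and from 95.2 to 122 CPM in the PBS group (edgeR adjusted p 3.73e-09). The other inducible proteasome subunits, Psmb9 and Psmb10, were 1.70 and 1.496 higher, and the class I transactivator Nlrc5 1.57 higher. The call on Psmb10 had an edgeR adjusted p of 1.09e-07. Canx, a general chaperone of the endoplasmic reticulum, was lower by 0.57 (log2 −0.57, edgeR adjusted p 4.30e-08). Of the 3 constitutive proteasome subunits, none was called, and Psmb7, Psmb5 and Psmb6 had log2 differences of −0.39, −0.18 and −0.0041. Heavy chain genes are close paralogs, and reads may be split among them.

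Of 12 interferon gamma signalling genes, 10 were tested and 8 called higher, against 24.6% of all genes. Gbp2, an interferon-induced GTPase, ranged from 7.22 to 8.79 CPM in wild type and from 22.8 to 47.7 CPM in the PBS mice (log2 1.99, edgeR adjusted p 2.37e-08). The transcription factors Irf8 and Irf1 were 1.28 and 1.401 higher (edgeR adjusted p 4.44e-08 and 7.07e-08). Ifng itself was too low to be tested, at no more than 0.232 CPM in any mouse. Jak1 and Jak2, the receptor kinases, had log2 differences of −0.29 and −0.34, under the size threshold. Of 6 ligands that co-stimulate or inhibit T cells, 4 were tested and 3 called higher, against the same 24.6%, namely Cd86 (1.86), Cd40 (1.71) and Icosl (1.27), with edgeR adjusted p of 1.73e-07, 3.23e-07 and 1.03e-08. Cd274 had a log2 difference of 0.13 (edgeR adjusted p 0.409).

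Most listed markers of the immune cells that carry class II, or that it is presented to, were also called higher, where 24.6% of all genes were. The summed level of 9 macrophage markers was 172 to 188 CPM in wild type and 408 to 706 CPM in the PBS mice, and 8 of the 9 were called higher. Among them were Cx3cr1 (log2 2.61), Mrc1 (2.01) and Fcgr1 (3.43), and the one not called was Csf1r (0.27). For 8 dendritic cell markers the sums were 10.8 to 19.2 and 23.7 to 46.9 CPM, with 5 called higher, among them Ccr7 (2.29), Itgax (1.54) and Batf3 (2.12). Not called were Clec9a and Xcr1, markers of cross-presenting dendritic cells, at 0.47 and 0.40, and Zbtb46 at −0.04. For 6 B cell markers the sums were 3.996 to 8.07 and 7.42 to 23.3 CPM, which overlap, with 6 of 6 called higher, among them Cd79b (1.56) and Cd22 (1.45). For 7 T cell markers the sums were 4.54 to 8.43 and 33.3 to 48.4 CPM, with 7 of 7 called higher, among them Lck (2.14), Cd8a (3.28) and Cd3e (2.14). None of these markers was at 0 in any mouse. The part of these cells in the levels of the 10 genes was not tested.

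The comparison of RGLS4326 with PBS asked whether treatment changed the genes in cystic kidney. None of the 10 was called in edgeR, where 2.15% of all genes were, and none had an adjusted p under 0.05 whatever its size, where 15.8% of all genes did. All 10 fitted differences were below zero, as were 7754 of the 15185 genes tested. Differences among mice were shared by most of the 10 genes, so the 10 signs are not independent. The median of the 10 was −0.24 against −0.0043 over all genes, and 1 of the 10 had an unadjusted p under 0.05, as did 36.8% of all genes. Without mouse 9 the median was −0.15, and 9 of 10 were below zero, as were 7796 of 15166 genes. None of the 10 was called, where 0.956% of all genes were. Then 1 had an unadjusted p under 0.05, against 32% of all genes. DESeq2 also called none of the 10.

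Psmb8 had the lowest p. It ranged from 13.4 to 68.6 CPM with a median of 43.5 in the treated mice, and from 22.0 CPM once mouse 9 was left out. Of the other 13 treated mice, 11 lay below the PBS median of 51.3 CPM, and 1 lay below every PBS mouse. The log2 difference was −0.39 (95% interval −0.72 to −0.06, edgeR p 0.0231, adjusted p 0.0862), and −0.31 without mouse 9 (edgeR adjusted p 0.112). Leaving out treated mouse 2, the highest, gave −0.46 with an edgeR adjusted p of 0.0331, which is under the p threshold and short of the size threshold.

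The log2 ratio of Psmb8 to Psmb5 had means of −0.90 ± 0.58 (SD, n = 14) in the treated mice and −0.41 ± 0.39 (SD, n = 12) in the PBS mice, with overlapping groups. The difference was −0.49, and −0.37 without mouse 9. For Cd74 relative to B2m it was −0.34, and −0.20 without mouse 9. The other 4 ratios had differences of −0.10 to 0.06.

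Cd74 ranged from 172 to 1661 CPM with a median of 953 in the treated mice, and from 578 CPM without mouse 9. Of those 13 mice, 11 lay below the PBS median of 1249.9 CPM and 1 below every PBS mouse. The log2 difference was −0.30 (95% interval −0.69 to 0.09, edgeR adjusted p 0.2498), and −0.21 without mouse 9. H2-Ab1 and H2-DMb1 likewise had 11 of the 13 mice below their PBS medians, with ranges of 312 to 759.5 and 12.7 to 30.2 CPM and log2 differences of −0.29 and −0.17 over all 14 treated mice. Without mouse 9 these were −0.20 and −0.11.

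H2-Aa ranged from 237 to 713 CPM in the 13 mice, with 3 of them below every PBS mouse and 1 above every PBS mouse. Its log2 difference over all 14 was −0.23 (95% interval −0.56 to 0.11), and −0.14 without mouse 9. H2-Eb1 ranged from 196 to 578 CPM, with 3 below every PBS mouse, and differed by −0.25 over all 14 (−0.71 to 0.21) and by −0.15 without mouse 9. H2-DMa ranged from 23.04 to 52.3 CPM, with 2 below, and differed by −0.19 over all 14 (−0.50 to 0.12) and by −0.11 without mouse 9. For all 3 the groups overlapped through most of their range.

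Tap1 had 5 of the 13 treated mice below every PBS mouse, the largest number of the 10 genes, and ranged from 21.0 to 54.9 CPM. Its log2 difference over all 14 was −0.26 (95% interval −0.57 to 0.05, edgeR adjusted p 0.204), and −0.18 without mouse 9. Ciita had none below, ranged from 13.4 to 24.9 CPM and differed by −0.15 over all 14 (−0.43 to 0.12) and by −0.08 without mouse 9. B2m ranged from 383 to 653 CPM, with 2 mice below and 2 above every PBS mouse, and differed by −0.03 (−0.20 to 0.14), or 0.01 without mouse 9. For 9 of the 10 genes, B2m excepted, the lower bound of the 95% interval lay between −0.72 and −0.43.

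**Figure D3:**
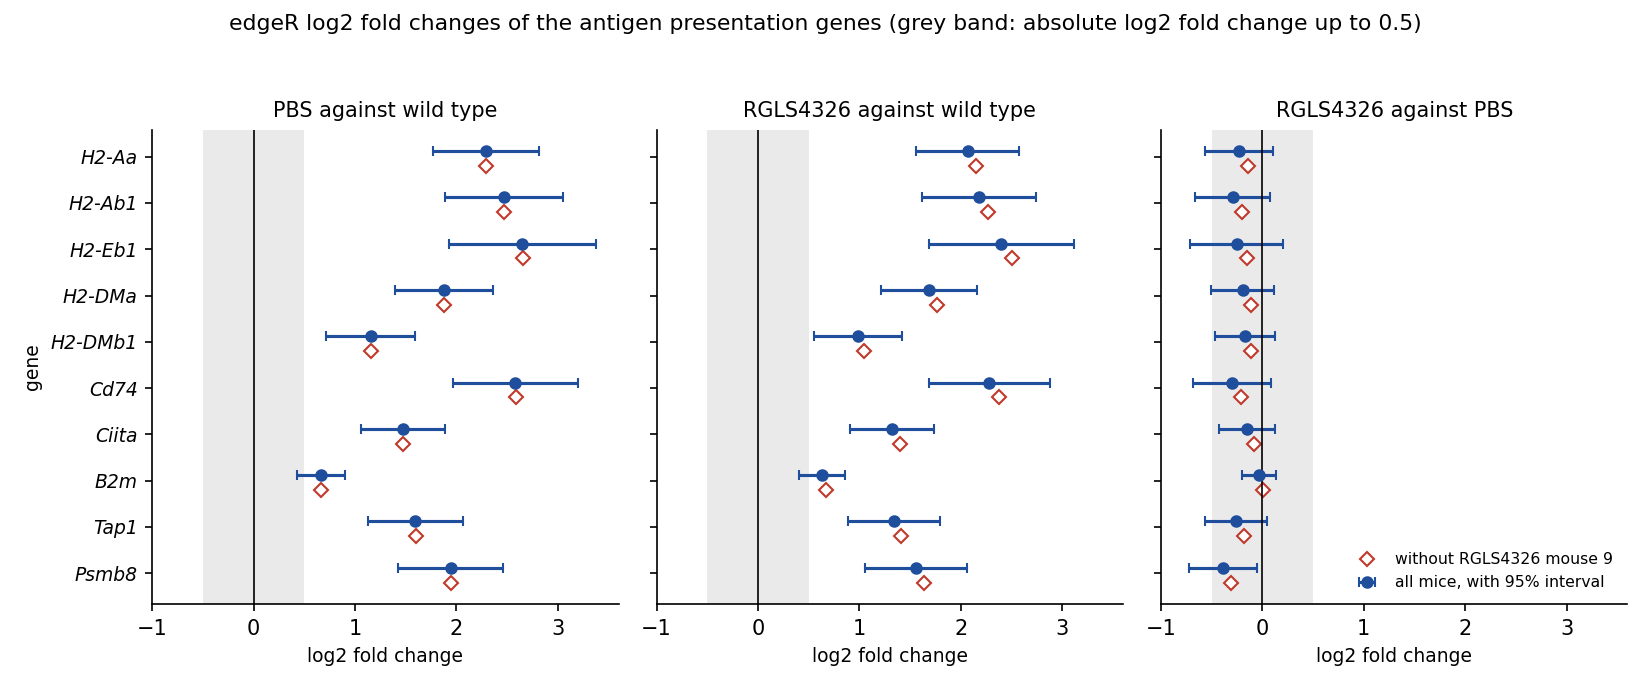
Log2 fold change of each gene in the 3 comparisons, with 95% intervals from the edgeR fit over all 31 mice; diamonds are the values without RGLS4326 mouse 9, and the grey band marks an absolute log2 fold change up to 0.5. Both comparisons with wild type lie right of zero for all 10 genes, and all 10 values for RGLS4326 against PBS lie between −0.39 and −0.03.

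Values within the index series differed. The median log2 difference of the 10 genes between RGLS4326 and PBS was 0.0054 in series 1, with 5 of 10 below zero. It was −0.70 in series 2, which holds mouse 9, with 10 of 10 below zero, and −0.09 in series 3, with 9 of 10 below zero. None was called within any series, where 0 of all genes tested were either, and the lowest edgeR adjusted p was 0.206.

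Differences among mice of a group were shared by most of the genes. In the PBS group, mouse 5 was the highest for 8 of the 10 genes and mouse 4 the lowest for 8. In the treated group, mouse 2 was the highest for 7 genes and mouse 13 for the other 3, and mouse 9 was the lowest for all 10. Mouse 9 lay within the range of the wild-type mice for 7 of the genes and below it for 3, namely H2-Ab1, H2-Eb1 and Tap1. Relative to the wild-type mean, the median over the 10 genes was −0.17 (log2) in mouse 9. It was 1.05 in the next lowest treated mouse, number 6, and 2.26 in the highest, and it ran from 1.48 to 2.49 in the PBS group. The summed macrophage, dendritic, T and B cell markers of mouse 9 were 173, 14.6, 7.57 and 5.93 CPM, each within the wild-type range.

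**Figure D4:**
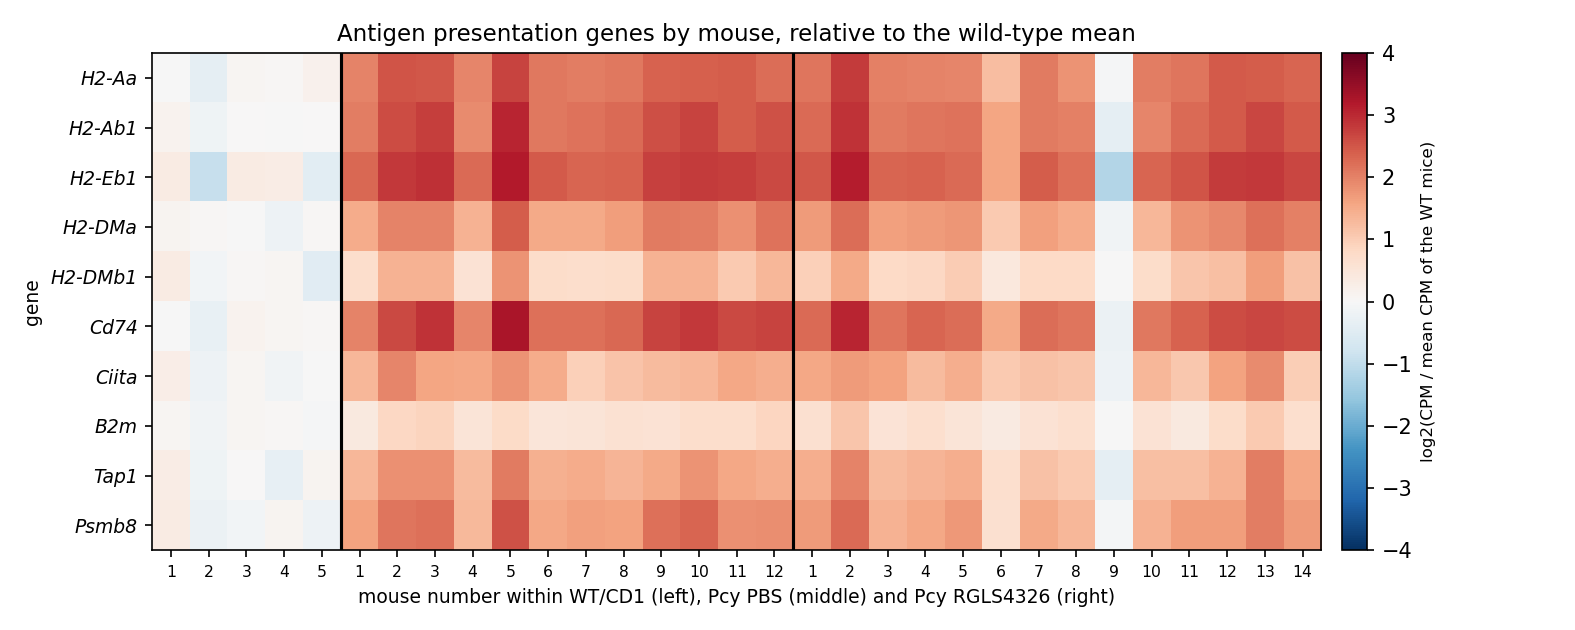
Heat map of log2(CPM / mean CPM of the wild-type mice) for the 10 genes (rows) in the 31 mice (columns, numbered within WT, PBS and RGLS4326 from left to right). Columns of the Pcy mice are shaded as a whole, PBS mouse 5 and treated mouse 2 most deeply, and RGLS4326 mouse 9 has the pale colours of the wild-type columns.

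All 10 genes were called higher in RGLS4326-treated mice than in wild type, against 20.3% of all genes, with a median log2 fold change of 1.62 (1.70 without mouse 9). The values were 2.40 for H2-Eb1, 2.28 for Cd74, 2.18 for H2-Ab1 and 2.07 for H2-Aa. H2-DMa, Ciita and H2-DMb1 followed at 1.68, 1.32 and 0.99, and Psmb8, Tap1 and B2m were at 1.56, 1.34 and 0.63. The edgeR adjusted p ran from 1.97e-07 for H2-Aa to 2.07e-04 for H2-DMb1. With mouse 9 left out, each treated mouse lay above every wild-type mouse for all 10 genes. The share of all genes separated in this way was not computed for the treated mice. The 2 comparisons with wild type share the wild-type mice, so they are not independent. Within index series 2 alone, where 1 of 5 treated mice is mouse 9, none of the 10 was called (edgeR adjusted p 0.07998 to 0.237), while all 10 were called in series 1. Over all genes, 2.45% were called in either direction in series 2, against 32.6% in series 1. Series 3 holds 1 wild-type mouse, and the median log2 difference of the 10 genes in it was 1.89. The log2 differences of the 10 genes in series 2 were 0.39 to 1.74, with a median of 1.29.

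Of the 11 class II and 16 class I pathway genes, none was called between RGLS4326 and PBS, where 2.15% of all genes were, with medians of −0.11 and −0.18, or −0.07 and −0.14 without mouse 9. The lowest p in the class II list were those of March1 (0.33, edgeR adjusted p 0.0765), Lgmn, a lysosomal protease (0.15, edgeR adjusted p 0.0881), and Rfxap (−0.11, edgeR adjusted p 0.0906). In the class I list they were those of the chaperone Canx (0.18, edgeR adjusted p 0.0277, short of the size threshold), Pdia3, an oxidoreductase of the peptide loading complex (0.11, edgeR adjusted p 0.0557), and the loading factor Tapbp (−0.23, edgeR adjusted p 0.0822). No interferon gamma signalling, co-stimulatory, dendritic, macrophage, B or T cell gene was called, with list medians of −0.17, −0.21, −0.08, −0.12, −0.02 and −0.39. Without mouse 9 these medians were −0.11, −0.14, −0.01, −0.06, 0.04 and −0.32, so that the B cell one changed sign. The summed T cell markers were then 30.4 to 44.3 CPM in the treated mice. Against wild type, where 20.3% of all genes were called higher, 4 of 11 class II and 11 of 16 class I pathway genes were called higher in the treated mice. So were 7 of 10 interferon gamma signalling genes and 3 of 4 co-stimulatory genes. Of the dendritic, macrophage, B and T cell markers, 6 of 8, 8 of 9, 5 of 6 and 7 of 7 were. Without mouse 9 the class I and interferon gamma counts were 12 and 8, and the others were the same.

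Over the 26 Pcy mice, the genes whose levels ordered the mice most as Cd74 did were ranked among 13784 genes by Spearman's rho, as a description, since all share tissue and libraries. H2-Ab1 was first at 0.98. The 5 closest genes outside the 10 were H2-DMb2 (0.97), H2-K1 (0.96), H2-Q2 (0.95), H2-D1 (0.95) and H2-K2 (0.94), of which the last 4 are class I genes or class I pseudogenes with close paralogs. The other class II genes had rho of 0.90 to 0.96 with Cd74, except Ciita at 0.48, which was 0.31 within the PBS group and 0.56 within the RGLS4326 group, or 0.45 there without mouse 9. Tap1 and B2m had 0.84 and 0.81. For Psmb8 the 5 closest genes outside the 10 were Tapbp (0.97), Psmb10 (0.97), Bst2 (0.96), Tap2 (0.96) and Psme1 (0.95), and Ciita was at 0.47. The median over all genes searched was −0.0079 for Cd74 and 0.0038 for Psmb8.

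The E alpha chain, partner of H2-Eb1, is annotated as the polymorphic pseudogene H2-Ea-ps (chr17:34341959-34344645, minus strand), because several laboratory haplotypes, the reference among them, do not express it. It was at 29.0, 1.247, 33.1, 33.7 and 1.45 CPM in the wild-type mice, so that mice 2 and 5, the pair low in H2-Eb1, were nearly without it. The counts behind those low values were 21 and 24. The PBS mice ranged from 243 to 390.2 CPM with a median of 289.8, and the treated mice from 151 to 416 CPM once mouse 9, at 28.1 CPM, was left out. As a share of H2-Eb1, H2-Ea-ps was 2.98% to 42.0% in wild type, 66.8% to 78.8% in the PBS group, 68.2% to 77.1% in the 13 treated mice and 97.2% in mouse 9. The PBS and wild-type groups did not overlap, with a log2 difference of 3.91 (SE 0.53, edgeR adjusted p 1.97e-07). The difference between RGLS4326 and PBS was −0.22 (edgeR adjusted p 0.613), and −0.12 without mouse 9 (edgeR adjusted p 0.762). The part of the MHC haplotype of each mouse in these values was not tested.

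**Figure D5:**
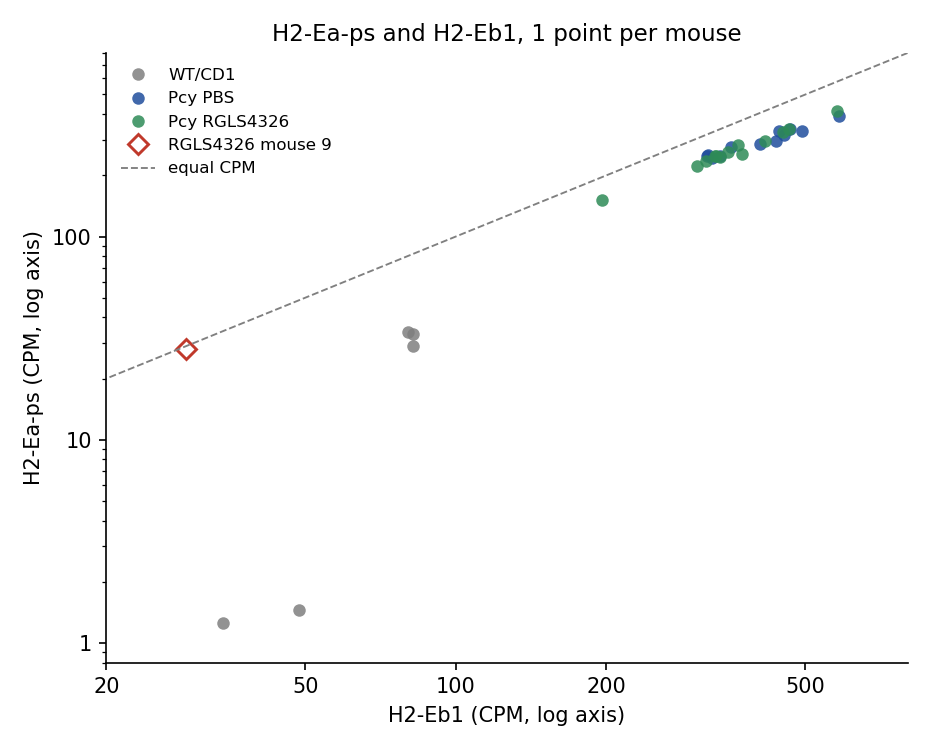
H2-Ea-ps against H2-Eb1 in CPM, both on log axes, with 1 point per mouse; the dashed line marks equal CPM and the diamond is RGLS4326 mouse 9. The Pcy mice other than mouse 9 lie just under the line, 3 wild-type mice lie at about 30 CPM of H2-Ea-ps and 2 at under 2 CPM, and the diamond lies near the line at the low end.

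RGLS4326 is complementary to the seed of miR-17, which pairs with matching sites in the 3′ ends of target messengers. The mature sequence from RefSeq is shown with its seed in capitals.
mmu-miR-17-5p: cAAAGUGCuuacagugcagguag
The match to the seed, GCACTTT, was found in the longest annotated 3′ untranslated region of 0 of the 10 genes, against 14% (1933) of the 13825 tested genes with such a region.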

How the data were processed

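Total RNA of 31 mouse kidneys was made into stranded polyA libraries. The authors trimmed reads with Trim Galore, aligned them to GRCm38 with STAR and counted uniquely mapped reads per gene with HTSeq 0.6.1; the deposited values are these raw counts, 1 table per mouse. STAR's version, the annotation and the strand setting of the counting are not given in the sources used here. The processing notes also name FastQC 0.11.2, SAMtools 1.1 and Picard 1.119. The 5 HTSeq summary rows were left out of library sizes and tests, and the no-feature and ambiguous ones came to 10.81% to 12.93% per mouse.

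Groups and replicate numbers were read from the labels. Genes were filtered with filterByExpr and scaled by TMM (factors 0.818 to 1.17), and 1 edgeR 4.0.16 quasi-likelihood model over all 31 mice (R 4.3.3) gave the 3 comparisons, with Benjamini-Hochberg adjustment over 15185 genes. The SE was taken as the log2 fold change over the square root of F. Likeness was Spearman's rho over genes averaging 1 CPM or more. Ratios of genes were log2 ratios of CPM with no pseudocount. Permutation tests of them were run, but their p-values are not reported, because the pairs were chosen after the values were seen. Annotation and sequences were read with Python 3.11.15. The script was tested on simulated data. Counting error at these depths (14892524 to 27459962 gene counts) was not separated from the spread between mice. It is relatively largest for the genes with the lowest counts. The labels number the mice, and same-numbered mice were not treated as pairs.

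Alternatives were DESeq2 1.42.0, other scaling, filters and covariates, each index series alone and each mouse left out. Named genes were the 10 members, the 3 genes of each list with the lowest p for PBS against wild type, the 3 of each pathway list with the lowest p for RGLS4326 against PBS, and the 5 genes most like Cd74 and Psmb8. Of these, 1 gene is not reported here. Other listed genes, H2-Ea-ps, Gm8615 and the ratios were chosen after their values were seen. The members and lists were chosen with earlier results of these data known.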

Additional observations from a re-analysis of the deposited data

How the results depend on the processing

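For PBS against wild type, 280 of 280 values for single genes under the alternatives kept their direction and their call, and the number of the 10 genes called was 10 under each. For RGLS4326 against wild type, 290 of 300 did. The exception was index series 2 alone, where 0 of the 10 genes were called. That series holds mouse 9 as 1 of its 5 treated mice, 2.45% of all genes were called in it, and the median log2 difference of the 10 genes was 1.29. For RGLS4326 against PBS, 0 of the 10 genes were called under any alternative, and 363 of 370 values kept their direction. In index series 1 alone the log2 difference was 0.012683 for H2-Aa, 0.016873 for H2-Eb1, 0.088825 for H2-DMa, 0.065486 for Cd74 and 0.096962 for B2m, and in index series 3 alone it was 0.018352 for Ciita. The cause was not tested. With 1 mouse left out at a time, B2m ranged from −0.077075 to 0.0086558, the latter without RGLS4326 mouse 9, and Psmb8 ranged from −0.46 to −0.31, with edgeR adjusted p from 0.0331 to 0.178.

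The count of all genes called for RGLS4326 against PBS, 327, was 411 with DESeq2, 210 with the 2 groups alone, 43 with the replicate number as a block, 0 within each index series, and 2402 with no threshold on size. It ranged from 78 without PBS mouse 10 to 574 without treated mouse 2, and was 145 without RGLS4326 mouse 9. The replicate block left the calls on the 10 genes at 10, 0 and 10 in the 3 comparisons. Same-numbered PBS and treated mice did not deviate together: the mean correlation over 12 pairs was −0.0849, and 4 were over 0.1. The lowest count of the 10 genes in any mouse was 98, and counting error was not separated from the spread between mice.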

Other observations

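Kidney epithelial genes divided between PBS-treated and wild-type mice. Of 9 listed kidney markers, 1 was called higher and 4 lower in the PBS group, against 24.6% and 17.8% of all genes. Aqp2, the water channel of the collecting duct, ranged from 133 to 414 CPM in wild type and from 629.6 to 1761 CPM in the PBS mice (log2 2.30, edgeR adjusted p 1.03e-08). The phosphate transporter Slc34a1 and the endocytic receptor Lrp2, both of the proximal tubule, were lower by 1.21 and 1.34 (log2 −1.21 and −1.34, edgeR adjusted p 5.68e-07 and 6.50e-07). Lrp2 ranged from 3295 to 3771 CPM in wild type and from 559 to 1945 CPM in the PBS mice.

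Aqp2 was the only gene of the lists called between RGLS4326 and PBS. It ranged from 374 to 1084 CPM in the treated mice and was lower than in the PBS group (log2 −0.56, edgeR adjusted p 0.0265). It was also called without mouse 9, where its log2 difference of −0.503 was only just past the size threshold. Lrp2 and Slc34a1 had log2 differences of 0.40 and 0.35 (edgeR adjusted p 0.0666 and 0.0710). The injury markers Lcn2 and Havcr1, which were 6.68 and 1.85 higher (log2) in the PBS group than in wild type, had differences of −0.81 and 0.13 between RGLS4326 and PBS (edgeR adjusted p 0.148 and 0.705). Without mouse 9 these were −0.70 and 0.22 (edgeR adjusted p 0.129 and 0.453).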
